A study of Sus scrofa with 8 samples.

Results

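Retinal ganglion cells (RGCs) are the output neurons of the retina, and their axons form the optic nerve. Their identity is commonly read from a small set of genes, of which 6 are described here: the transcription factors POU4F1 and POU4F2, the RNA-binding protein gene RBPMS, the vesicular glutamate transporter gene SLC17A6, the neurofilament light chain gene NEFL and the synuclein gene SNCG. They were chosen by name, and all 6 are among the 35683 genes of the files. The question is how these genes were expressed in pig RGC nuclei, and whether their levels differed after intravitreal gene transfer.

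POU4F1 and POU4F2, also called BRN3A and BRN3B, are POU-domain factors that direct the differentiation of RGCs, the growth of their axons and their survival. RBPMS binds RNA in the RGC cytoplasm and is used to count RGCs as a whole. SLC17A6, also called VGLUT2, loads glutamate into the synaptic vesicles with which RGCs signal to the brain. NEFL builds the intermediate filaments of large axons and SNCG is a soluble protein abundant in RGC axons, so both belong to the axonal side of the cell.

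Single-nucleus RNA sequencing covered 8 retinas of 6 female Yucatan minipigs aged 3 to 5 months. AAV2.7m8/CAG-GFP, a capsid made for intravitreal delivery with a ubiquitous promoter driving green fluorescent protein, was given at 5e11 vector genomes per eye, and controls received vehicle. Both arms were injected in both eyes, had Vitrase (a hyaluronidase) injected into the vitreous before dosing and received methylprednisolone every week. The week 2 retinas were the paired eyes of 2 animals, 7221 for AAV and 7222 for vehicle, 1 animal per arm, and the arms were not tested at that week alone. The week 4 retinas were left eyes only, with 7248 and 7249 for AAV and 7250 and 7251 for vehicle. The paper describes week 4 cohorts sacrificed on different days, and the labels do not give the cohort of these animals. Retinas are listed below in this order, left eye before right eye at week 2. Each group also has its own batch label, and the effect of batch cannot be told apart from that of treatment.

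A nucleus was gated as an RGC by a score over marker genes (the 6 genes with POU4F3, RBPMS2, NRN1, CHRNA6 and CHRNB3), which had to exceed the scores of 10 other retinal and immune classes. For each of the 6 genes the gate was rebuilt without that gene, so that no gene chose the nuclei in which it was measured. The full gate held 1261 of 350569 nuclei kept, with 185, 140, 152, 223, 133, 120, 131 and 177 per retina. Their median depth was 20501 to 22406 unique molecular identifiers (UMIs, 1 per captured transcript) per nucleus in the 4 AAV-injected and 16825 to 19650 in the 4 vehicle-injected retinas, without overlap. The gate chose these nuclei by the same panels, so the panel levels describe the gate and are no separate evidence of identity. The summed level of the RGC panel lay between 1563 and 1974 CPM (UMIs of the gene per 1000000 UMIs of the class) per retina. Pooled over retinas, RBPMS alone gave 1064 of its 1776.5 CPM. The highest of the other panels were those of bipolar cells (215 to 434 CPM, against 14357 CPM in bipolar nuclei) and rods (146.7 to 417 CPM, against 17773 CPM in rod nuclei). Müller and horizontal cell panels followed with 93.9 to 144 and 85.2 to 163 CPM, and the remaining 6 panels ranged from 0.904 CPM for astrocytes to 81.9 CPM for cones. Per-library total UMIs were 121544835 to 173614051, and lanes shared 18 to 65 cell barcodes per pair, at most 0.514% of the smaller lane.

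All 6 genes were higher in RGC nuclei than in amacrine, horizontal, bipolar, cone and rod nuclei summed, in each of the 8 retinas and without overlap. This is a description, since the gate selects cells by genes of the same programme. With the gate that used none of the 6 genes it held for the other 5, while POU4F1 overlapped, with no UMI in the RGC nuclei of at least 1 retina. Pooled over retinas, the level in RGC nuclei was 464-fold that in the other neurons for SLC17A6 (373 to 687 over retinas), 282-fold for RBPMS (236 to 330) and 149-fold for POU4F2 (71.5 to 796). The range of POU4F2 rests on as few as 1 UMI in the other neurons of a retina, and its upper end was 307 with mixed nuclei kept and 423 without the mitochondrial filter. It was 18.3-fold for POU4F1 (8.37 to 31.5), 11.5-fold for SNCG (8.22 to 15.6) and 8.78-fold for NEFL (5.85 to 13.1). The 6 genes thus split into SLC17A6, RBPMS and POU4F2, nearly restricted to RGCs among neurons, and POU4F1, SNCG and NEFL, with a lower contrast.

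The share of each gene's UMIs that lay in RGC nuclei gave a similar order. It was 83.2% for SLC17A6, 70.2% for POU4F2, 58.0% for RBPMS, 38.1% for POU4F1, 19.8% for SNCG and 16.2% for NEFL, although RGCs were between 0.256% and 0.510% of the nuclei. The largest remaining portion of every gene but POU4F1 was in nuclei that the gate assigned to no class, from 12.52% for SLC17A6 to 39.0% for NEFL. For NEFL and SNCG, rods held a further 15.0% and 13.8%.

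**Figure D1:**
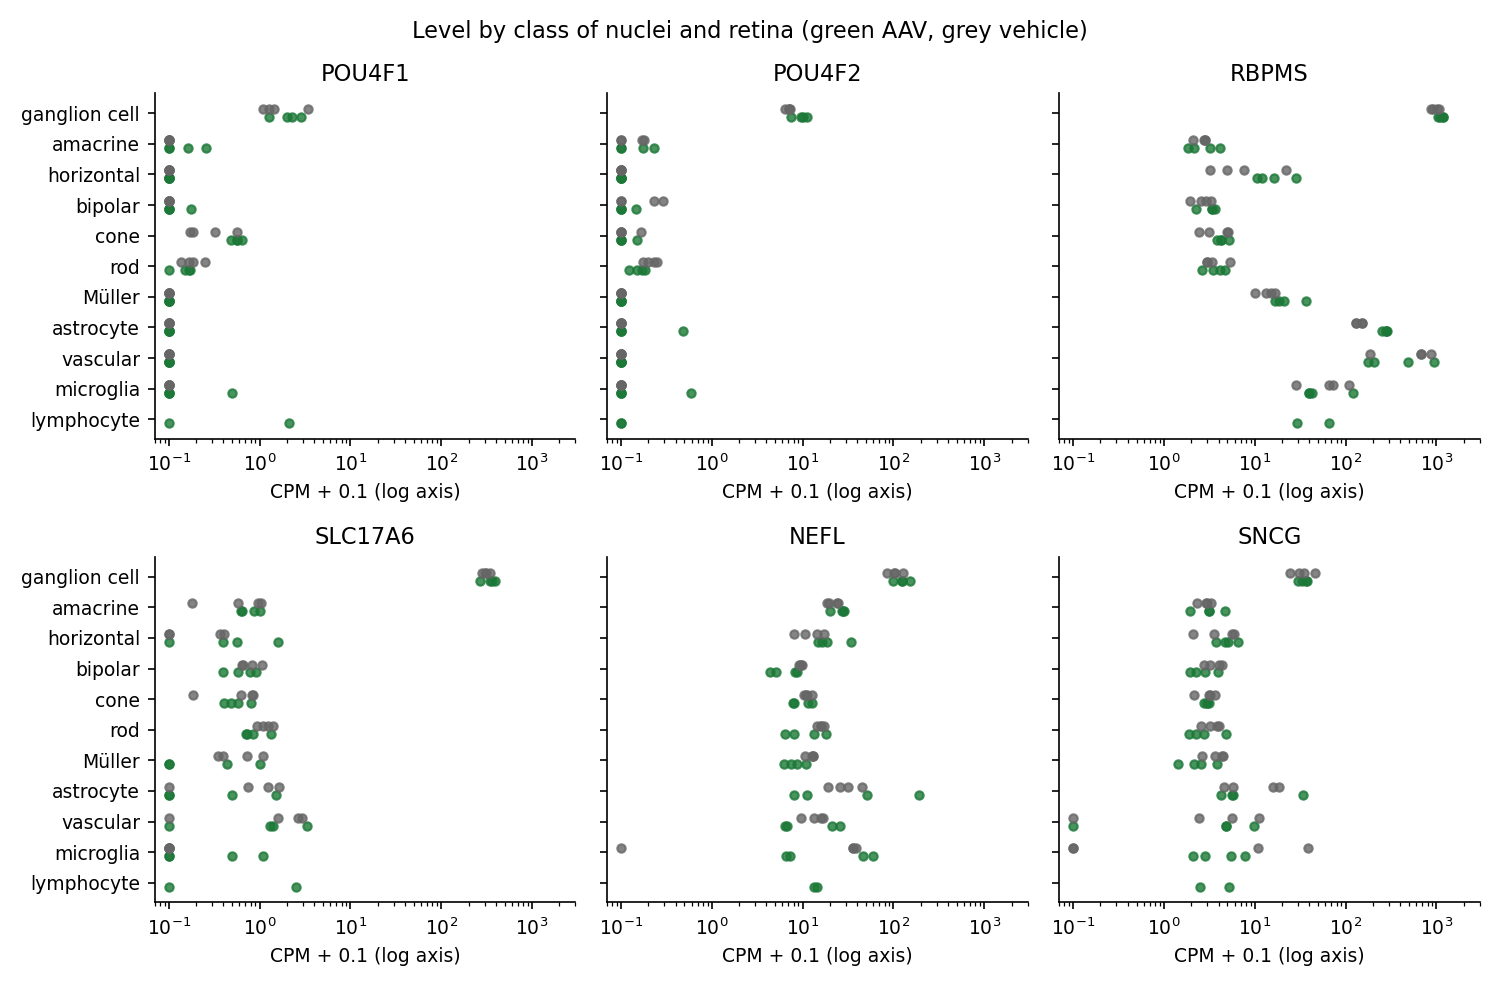
Level of each of the 6 genes in 11 classes of nuclei, as CPM plus 0.1 on a log axis; each point is 1 retina, green for AAV-injected and grey for vehicle-injected, and points at 0.1 have no UMI. RGC nuclei stand to the right of the other neurons for all 6 genes, while RBPMS in vascular nuclei reaches 937 CPM, within the range of RGC nuclei.

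Levels of different genes in nuclei may depend on gene length, because a longer gene can give more UMIs. The assay is designed to capture 3' ends, so counts need not scale with exon length. Levels per kilobase are therefore a description and no ranking of expression. The lengths are from RefSeq, whereas the counted genes carry Ensembl identifiers. Unscaled, the order was that per kilobase of exon, from 1045 CPM for RBPMS to 1.82 CPM for POU4F1. Per kilobase of exon, pooled over retinas, RBPMS was highest in RGC nuclei with 78.6 CPM, followed by SLC17A6 with 61.3, NEFL with 32.4, SNCG with 28.2, POU4F2 with 5.47 and POU4F1 with 0.813 CPM. The ranges of RBPMS and SLC17A6 over retinas overlapped (65.3 to 89.6 and 51.3 to 74.6 CPM), as did those of NEFL and SNCG (24.1 to 42.5 and 20.0 to 37.7 CPM). Per kilobase of the whole gene, introns included, the order changed and NEFL led with 20.6 CPM, against 5.59 CPM for RBPMS. On both scales POU4F1 was lowest, with 0.631 CPM per kilobase of gene against 4.23 CPM for POU4F2.

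The transcription factor POU4F1 was near the limit of detection. It lies on the minus strand of chromosome 11 (11:50729746-50732626, Sscrofa11.1) in 2 exons. Its UMIs in RGC nuclei were 5 and 7 in the AAV-injected eyes and 11 and 6 in the vehicle-injected eyes at week 2, and 8 and 5 against 3 and 3 at week 4. The levels were 1.17, 2.18, 3.33 and 1.35 CPM at week 2 and 2.79, 1.89, 1.15 and 0.979 CPM at week 4. The AAV-injected retinas were thus above the vehicle-injected ones at week 4 but not at week 2. With 13 against 6 UMIs the gene failed the filter on low counts and was not tested, and the ratio at week 4 was 2.23, with a 95% interval of 0.789 to 7.14 that covers counting error only. The week 2 ratio was 0.733 (0.319 to 1.63). Only 1.69% to 7.28% of gated nuclei had a POU4F1 UMI, against at most 0.0266% of rod nuclei, which were shallower with median depths of 1496 to 2247 UMIs. These shares count nuclei with a captured transcript, not nuclei that use the gene.

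The largest portion of POU4F1 outside RGCs was in cones. Cone nuclei held 40 of its 126 UMIs (31.7%), against 48 in RGCs, 13 in rods, 2 in amacrine nuclei and 1 in bipolar nuclei. Each cone UMI came from a different nucleus. The cone levels were 0.468, 0.463, 0.466 and 0.222 CPM at week 2 and 0.541, 0.388, 0.0735 and 0.0828 CPM at week 4, so the vehicle-injected retinas of week 4 were lowest, with 1 UMI each. Between 0.0212% and 0.196% of cone nuclei had a UMI, at median depths of 2256 to 4208 UMIs. In the vehicle-injected retinas of week 4 the cone shares were 0.0228% and 0.0212% and the rod shares 0.0149% and 0.0266%, from 1 or 2 UMIs each and with overlapping counting intervals.

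POU4F2 was more frequent than POU4F1. It lies on chromosome 8 (8:82044443-82046377, minus strand) and also has 2 exons. The levels in RGC nuclei were 10.997 and 7.42 CPM in the AAV-injected and 6.32 and 6.94 CPM in the vehicle-injected eyes at week 2. At week 4 they were 10.1 and 9.43 CPM against 6.93 and 7.19 CPM, from 29, 25, 18 and 22 UMIs. Every AAV-injected retina was above every vehicle-injected one, as for 3.23% of genes tested in the full gate. The week 4 difference did not pass the test (log2 fold change 0.53 ± 0.34 SE, 95% interval -0.20 to 1.26, edgeR quasi-likelihood, adjusted p = 0.527), and the week 2 ratio was 1.42 with a counting interval of 0.976 to 2.07. Between 10.2% and 20.2% of gated nuclei had a POU4F2 UMI, against 0.00504% to 0.0326% of the shallower rods.

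Joint detection of the POU4F factors was limited by their low counts. Gated without both genes, 47 of 1268 nuclei had a POU4F1 UMI, 184 had a POU4F2 UMI and 7 had both, which is 14.9% of the first and 3.80% of the second. These 7 nuclei are too few to say whether POU4F2-positive nuclei were as frequent among POU4F1-positive nuclei as among all of them. RBPMS was detected in 908 and SLC17A6 in 870 of 1003 nuclei gated without either. Both were detected in 868, which is 95.6% of the RBPMS-positive and 99.8% of the SLC17A6-positive nuclei. With most nuclei positive for each gene, high joint shares follow in part from the single shares. Of the 1261 nuclei of the full gate, 522 had UMIs of 3 of the 6 genes, 460 of 4, 92 of 5 and 2 of all 6.

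RBPMS gave the most UMIs of the 6 genes. It spans 187 kb of chromosome 15 (15:54538583-54725605, minus strand) and has 14 annotated transcripts. Its levels in RGC nuclei were 1101 and 1184 CPM in the AAV-injected against 869 and 923 CPM in the vehicle-injected eyes at week 2, and 1191 and 1048 against 1066 and 1017 CPM at week 4. The week 2 eyes did not overlap and the week 4 animals did, and 30.3% of genes were higher in both AAV-injected eyes at week 2. The ratio at week 2 was 1.26 (counting interval 1.22 to 1.31, 1 animal per arm, not tested), and the week 4 log2 fold change was 0.18 ± 0.11 SE (95% interval -0.06 to 0.41, edgeR, adjusted p = 0.504). A UMI was found in 90.4% to 98.1% of gated nuclei, against 0.449% to 0.876% of the shallower rods, and up to 107 in 1 nucleus.

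SLC17A6, on chromosome 2 (2:37098983-37138935, minus strand, 12 exons), was the gene of the 5 tested with the smallest p-value at week 4. Its levels were 393 and 361 CPM in the AAV-injected against 341 and 278 CPM in the vehicle-injected retinas, without overlap. The log2 fold change was 0.36 ± 0.12 SE (95% interval 0.08 to 0.63), with an adjusted p = 0.199 over all genes in edgeR's quasi-likelihood test (unadjusted 0.0144). At week 2 the levels were 346 and 270 against 309 and 301 CPM, so the AAV-injected eyes lay on either side of the vehicle-injected ones, and the ratio was 1.03 (0.971 to 1.09). RGC nuclei with at least 5000 UMIs were also thinned to that number, and shallower ones were left out. The expected share with an SLC17A6 UMI at week 4 was then 80.3% after AAV and 71.0% after vehicle. The difference was 9.32 percentage points, and 6.30 with 1000 UMIs per nucleus. Without thinning the shares were 96.2% and 87.0%, and 0.123% to 0.261% in the shallower rods. The difference at 5000 UMIs gave p = 0.3333 in an exact two-sided permutation test of 2 against 2 animals, the smallest p this design allows.

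The axonal genes showed no difference at week 4 that passed the test in RGC nuclei kept by the mitochondrial filter. NEFL (14:8991321-8996900, minus strand, 4 exons) was at 99.8 and 125 CPM in the AAV-injected against 101 and 128 CPM in the vehicle-injected retinas, which interleave. Its log2 fold change was 0.03 ± 0.15 SE (95% interval -0.28 to 0.35, edgeR, adjusted p = 0.949). SNCG, farther along the same chromosome (14:87916353-87922111, plus strand, 6 exons), was at 37.3 and 29.6 against 30.5 and 45.6 CPM, with a log2 fold change of -0.12 ± 0.22 SE (95% interval -0.61 to 0.36, adjusted p = 0.865). At week 2 NEFL was at 125 and 151 CPM in the AAV-injected against 85.6 and 104 CPM in the vehicle-injected eyes, a ratio of 1.42 (1.29 to 1.56) between 1 animal per arm. The week 2 levels of SNCG were 36.5 and 33.1 against 24.2 and 34.5 CPM and overlapped. NEFL was detected in 73.2% to 80.8% of gated nuclei and SNCG in 35.8% to 50.3%, against 1.34% to 3.21% and 0.449% to 0.824% of rods. Rods were much shallower, and these shares are not scaled for depth.

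**Figure D2:**
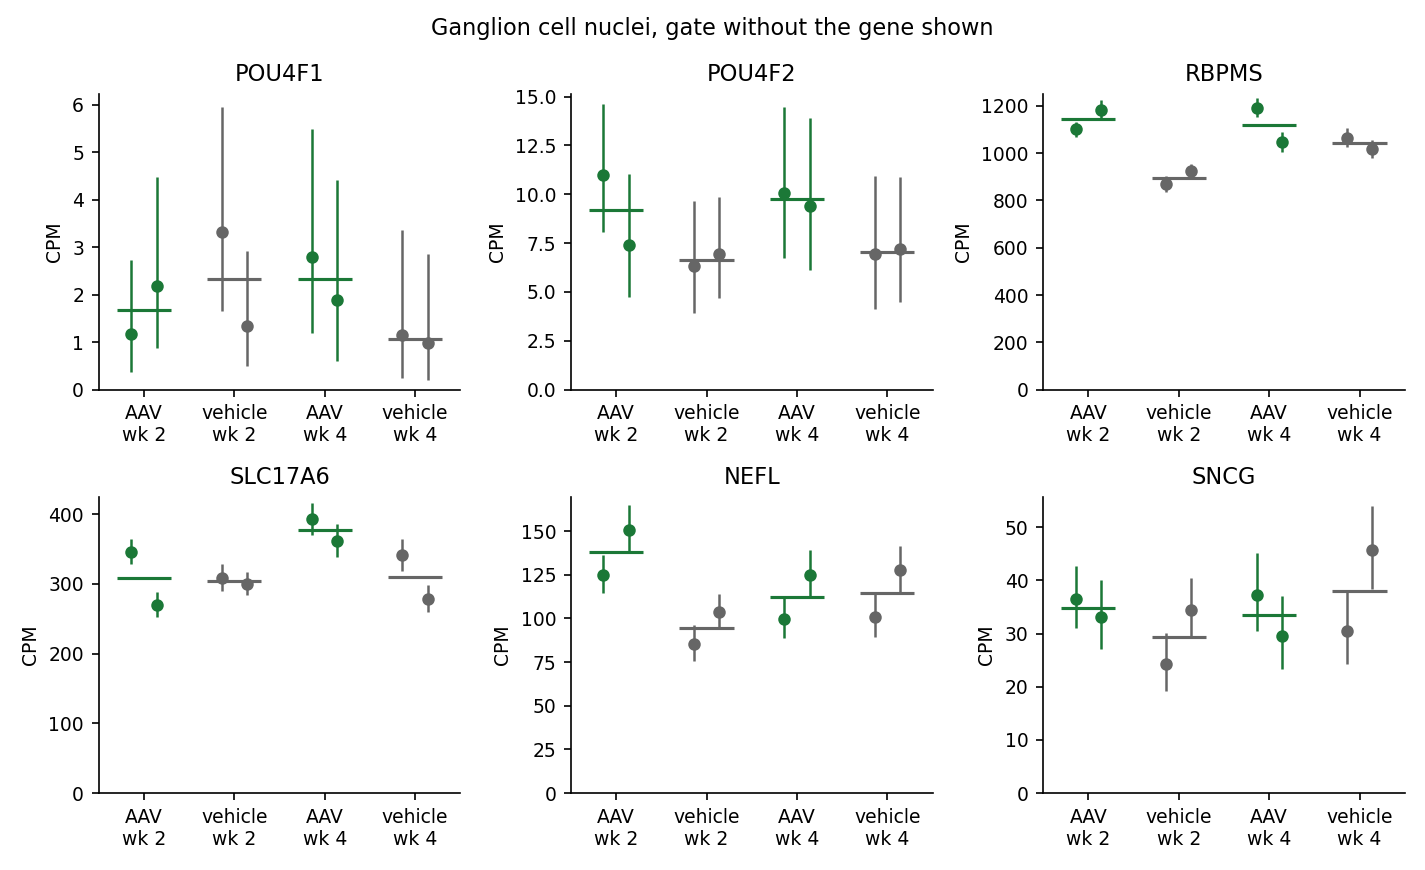
Level of the 6 genes in RGC nuclei, gated without the gene shown, in CPM; each point is 1 retina with its exact 95% Poisson interval (counting error only), horizontal lines are group means, green is AAV-injected and grey vehicle-injected. The AAV-injected retinas lie above the vehicle-injected ones at week 4 for POU4F1, POU4F2 and SLC17A6, and at week 2 for POU4F2, RBPMS and NEFL.

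Of the 5 genes that could be tested in RGC nuclei at week 4, 0 passed the threshold of an adjusted p of 0.05 in edgeR or in DESeq2. SLC17A6, 1 of the 5, had an unadjusted p under 0.05. Of all genes tested in the full gate, 14.3% had such a p in edgeR and 6.41% in DESeq2. The 1 of 5 therefore cannot be read as an excess. The absence of calls holds for nuclei kept by the mitochondrial filter, and without it NEFL was called lower, as described below. Of all genes, edgeR called 2.32%, 2.72%, 2.21%, 2.52% and 2.26% in the gates without POU4F2, RBPMS, SLC17A6, NEFL and SNCG, and DESeq2 called 1.34%, 1.3%, 1.37%, 1.36% and 1.37%. POU4F1, POU4F2 and SLC17A6 did not overlap between the groups, all with higher values in AAV-injected retinas, but 45.9% of genes tested in the full gate did not overlap, and 17.1% were higher in both AAV-injected retinas. In the NEFL gate the mitochondrial share of UMIs was 0.0287% and 0.0252% in the AAV-injected against 0.0481% and 0.0448% in the vehicle-injected retinas of week 4, and the part of this or of depth in the differences was not tested. On simulated counts for RGC nuclei, 73% of genes changed by 1 log2 unit and 99% of those changed by 2 were recovered, and smaller changes such as those fitted here were not simulated. No difference of the treatment effect between the weeks passed the test for the 5 genes (edgeR interaction over 6 animals, log2 differences between -0.42 for NEFL and 0.37 for SLC17A6, with 0 called and 0 at an unadjusted p under 0.05, and 0 called by DESeq2). In the same order of gates 0.139%, 0.27%, 0.127%, 0.193% and 0.16% of all genes passed this test. A difference between weeks of up to 0.81 log2 units for SLC17A6 lies within its 95% interval.

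The gate itself was compared as well. Gated nuclei were 0.265% of nuclei after AAV and 0.365% after vehicle at week 4, and the difference of -0.0995 percentage points had p = 0.3333 in the exact permutation test over animals. The difference was -0.0342 without vehicle-injected animal 7251, -0.165 without 7250, -0.0288 with the gate that used none of the 6 genes (571 nuclei, 0.116% against 0.145%) and -0.192 without the mitochondrial filter (1665 nuclei, 0.270% against 0.462%). The last value depends on NEFL, a gate gene at 494 CPM in removed and 16.0 CPM in kept barcodes. The gate without NEFL put back 8 nuclei after AAV and 37 after vehicle at week 4. The gate without POU4F1, which keeps NEFL, put back 25 and 133. In the same order as above, the shares per retina were 0.510%, 0.340%, 0.309%, 0.510%, 0.275%, 0.256%, 0.2995% and 0.430%, so both arms at week 2 held 1 eye near 0.51%.

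AAV-injected retinas allow a split of RGC nuclei by EGFP, the transgene. An EGFP UMI was found in 58.9% and 80.0% of gated nuclei at week 2 and in 44.4% and 50.8% at week 4, and in 0 of 683 gated nuclei of the vehicle-injected retinas, which allows a share of up to 0.439% (3 counts of 683). EGFP-positive nuclei were deeper (medians of 23135 to 25250 against 17423 to 19687 UMIs in the NEFL gate), and this split is described without a test. NEFL was lower in EGFP-positive than in EGFP-negative RGC nuclei in each of the 4 retinas, with 117 against 140 and 149 against 161 CPM at week 2 and 91.7 against 109 and 118 against 133 CPM at week 4. SNCG was likewise lower in all 4, with 35.2 against 39.0, 32.1 against 39.3, 34.6 against 40.2 and 23.9 against 36.4 CPM. Of all genes tested in the full gate, 7.28% were lower in all 4. The counting intervals of the 2 sorts of nuclei overlapped for both genes in every retina. POU4F2 was higher in EGFP-positive nuclei in both week 4 retinas (12.6 against 7.25 and 11.4 against 6.92 CPM) and lower in both week 2 eyes (10.8 against 11.3 and 5.78 against 17.1 CPM), again with overlapping intervals. SLC17A6 was lower in the left eye of week 2 (327 against 382 CPM), where the intervals did not overlap, and higher in the other 3 retinas (274 against 247, 405 against 379 and 372 against 348 CPM). RBPMS was lower in 3 of the 4 and POU4F1, on 1 to 6 UMIs per value, in all 4, with overlapping intervals.

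In other neurons the 6 genes were low, and NEFL in rods gave the single difference past the threshold. At week 4, 16 combinations of gene and class had enough counts for a test (rods, cones, bipolar, amacrine and horizontal cells), of which 1 passed and 5 had an unadjusted p under 0.05. The share of all genes called, in the gates without NEFL, was 0.892% in cones, 2.85% in amacrine cells, 2.9% in bipolar cells, 4.42% in horizontal cells and 11.9% in rods. The share of all genes with an unadjusted p under 0.05 is not given for these classes and is at least as high. The 5 of 16 therefore cannot be read as an excess. The levels of NEFL in rods were 6.34 and 8.02 CPM in the AAV-injected against 14.3 and 15.9 CPM in the vehicle-injected retinas at week 4, and 13.4 and 17.9 against 16.0 and 17.0 CPM at week 2. NEFL in rods thus fell by 0.98 on the log2 scale at week 4 (SE 0.19, edgeR, adjusted p = 0.0258, with DESeq2 adjusted p = 7.65e-04), while the week 2 eyes interleaved. In rods 11.9% of 20614 genes passed, and 5.65% passed with a lower value (6.44% in DESeq2), so a call was frequent in this class. A lower value in both AAV-injected retinas was found for 34.7% of all genes in rods. The call was lost without vehicle-injected animal 7250 (log2 -1.05, adjusted p = 0.110) or 7251 (log2 -0.92, adjusted p = 0.136), and with all 6 animals and week as a term (log2 -0.69, adjusted p = 0.398).

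The other combinations with an unadjusted p under 0.05 also concerned the axonal genes. NEFL in bipolar nuclei was at 4.31 and 5.01 against 9.56 and 8.92 CPM (log2 fold change -0.96 ± 0.22 SE, edgeR, adjusted p = 0.0648). SNCG had log2 fold changes of -0.99 in bipolar nuclei and -0.77 in rods, with adjusted p = 0.128 and 0.121. Horizontal cells went the other way, with NEFL at 18.3 and 33.7 against 7.90 and 10.49 CPM (log2 fold change 1.42 ± 0.36 SE, adjusted p = 0.0714). The horizontal cell difference passed the threshold without AAV-injected animal 7248 (adjusted p = 2.78e-04) or without vehicle-injected animal 7251 (adjusted p = 0.0128), and in the latter case that of rods did not.

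A pair of measurements stands beside the rod values of NEFL. The levels of 6.34 and 8.02 CPM lie below those in lymphocyte nuclei of the same retinas (14.2 and 13.3 CPM, from 14 and 11 UMIs). In these retinas 1.34% and 1.91% of rod nuclei had a NEFL UMI, against 2.03% and 1.92% of lymphocyte nuclei, at median depths of 1977 and 2247 against 1182 and 1186 UMIs. The vehicle-injected retinas of week 4 held 1 lymphocyte nucleus in all and give no such value. The share of mitochondrial UMIs in the kept rods was also lowest in the AAV-injected retinas of week 4 (0.0592% and 0.0509%, against 0.0713% to 0.127% in the other 6). The part of either in the NEFL difference was not tested, and the log2 fold change was -0.86 (edgeR, adjusted p = 0.0371) with 1 limit of 0.3% on the mitochondrial share in every retina.

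NEFL and SNCG UMIs were concentrated in barcodes rich in mitochondrial RNA, which the filter on nuclei removed. Over all classes the removed barcodes held 6.55% of all UMIs but 68.3% of NEFL UMIs and 36.2% of SNCG UMIs. The corresponding shares were 5.07% for SLC17A6 and 4.08% for RBPMS, and 23.1% and 13.1% for POU4F2 and POU4F1. NEFL was at 494 CPM in removed and 16.0 CPM in kept barcodes, a fold of 30.8. In the removed barcodes it was 599, 626, 592 and 643 CPM at week 2 and 195, 136, 554 and 430 CPM at week 4, so the AAV-injected retinas of week 4 were lowest there too. Among nuclei gated as RGCs without NEFL, the 89 removed were at 1591 CPM and the kept ones at 115 CPM. Of these, 8 were in the AAV-injected retinas of week 4, at 783 CPM, and 37 in the vehicle-injected ones, at 2191 CPM. With them put back, NEFL in RGC nuclei was lower by 0.66 on the log2 scale at week 4 (edgeR, adjusted p = 0.0204). That fit called 3.16% of genes and 1.04% lower. The part of the unequal numbers put back in this difference was not tested. Without the mitochondrial filter SNCG had a log2 fold change of -0.61 (edgeR, adjusted p = 0.150) in its own gate. That gate left out SNCG but still scored NEFL. It put back 186 nuclei over the 8 retinas, of which 13 were after AAV and 56 after vehicle at week 4. The result for NEFL in RGC nuclei therefore holds for the filtered nuclei only.

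**Figure D3:**
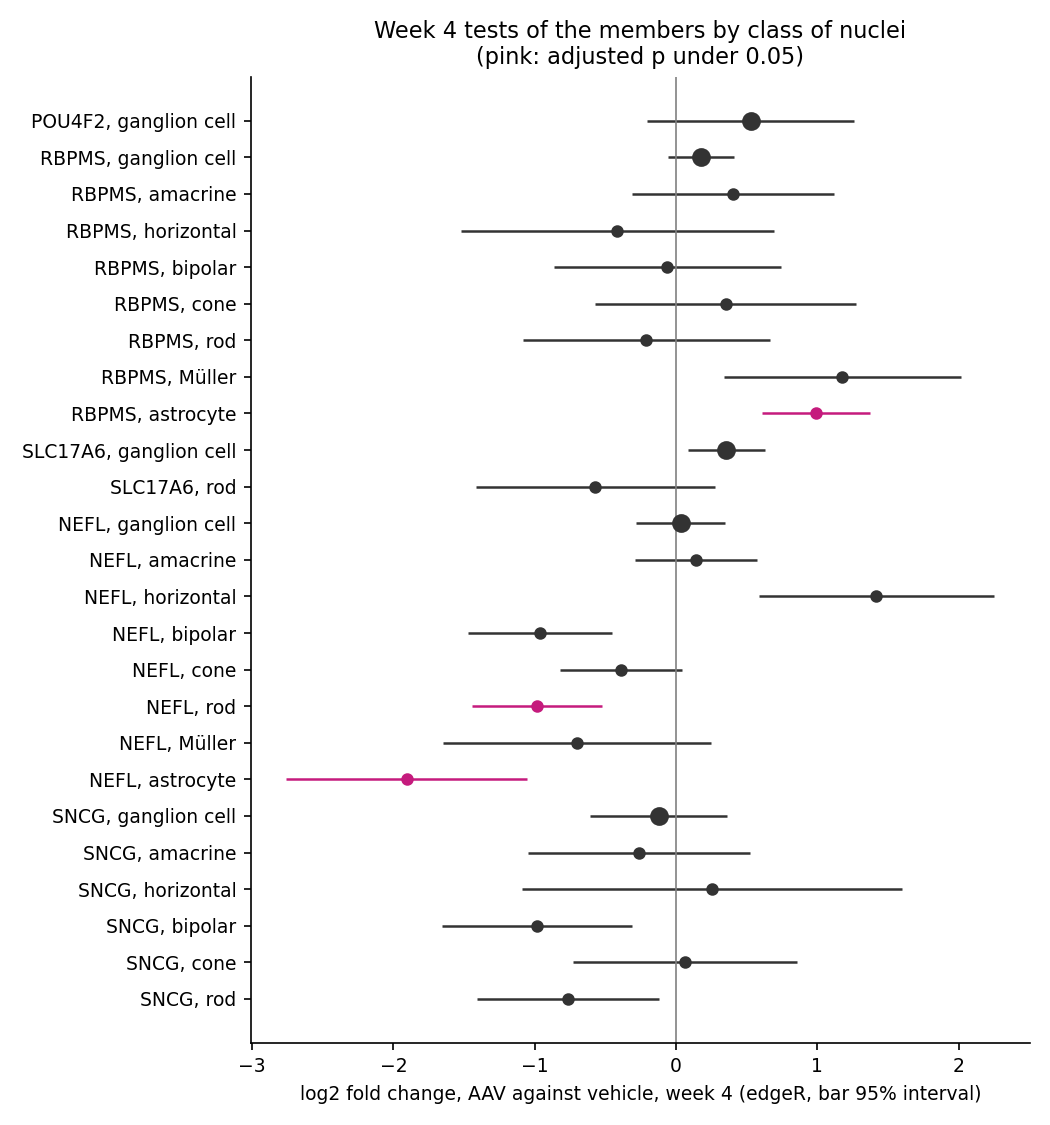
Log2 fold change of AAV-injected against vehicle-injected retinas at week 4 for each gene and class with enough counts, from edgeR's quasi-likelihood test; points are estimates, bars 95% intervals, large points RGC nuclei, and pink marks an adjusted p under 0.05. The 5 RGC values lie between -0.12 and 0.53 and none is pink, while NEFL in rods (-0.98) and astrocytes (-1.91) and RBPMS in astrocytes (0.99) are.

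Outside neurons, RBPMS was the gene with the highest levels. In vascular nuclei it ranged from 175 to 937 CPM over the retinas, overlapping RGC nuclei, and in astrocyte nuclei from 129 to 289 CPM. Astrocyte and Müller nuclei were tested after these values had been seen. In astrocytes RBPMS was at 276 and 289 CPM in the AAV-injected against 130.2 and 152 CPM in the vehicle-injected eyes at week 2, and at 252 and 277 against 149.8 and 129 CPM at week 4. All 4 AAV-injected retinas were above all 4 vehicle-injected ones, as for 5.36% of genes in astrocytes. RBPMS rose in astrocytes by 0.99 on the log2 scale at week 4 (SE 0.17, 95% interval 0.61 to 1.38, edgeR, adjusted p = 0.00642), where 13.8% of 11109 genes passed and 7.21% passed with a higher value. A higher value in both AAV-injected retinas was found for 25.9% of genes in astrocytes. The week 2 ratio was 2.00 (counting interval 1.74 to 2.30), and the test of a difference between the weeks gave -0.01 on the log2 scale (95% interval -0.67 to 0.65, edgeR, adjusted p = 0.997, 1.12% of genes called). Astrocyte nuclei were deeper in the AAV-injected retinas of week 4, with medians of 8994 and 10232 UMIs against 4458 to 5437 in the others, and the part of depth in the difference was not tested at week 4, while at week 2 the depths were 5163 to 5437. In Müller nuclei RBPMS had a log2 fold change of 1.18 (adjusted p = 0.0733, against 11.6% of genes called), from 231 and 94 nuclei in the AAV-injected retinas. It was 0.45 without AAV-injected animal 7248 (adjusted p = 0.718), 0.81 without vehicle-injected animal 7250 (adjusted p = 0.394), 1.53 without vehicle-injected animal 7251 (adjusted p = 0.147) and 1.46, past the threshold, without AAV-injected animal 7249 (adjusted p = 0.0245).

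NEFL in astrocytes differed between the arms with opposite signs at the 2 weeks. Its levels were 51 and 190 CPM in the AAV-injected against 19.0 and 31.9 CPM in the vehicle-injected eyes at week 2, and 7.99 and 11.095 against 25.9 and 45.4 CPM at week 4. At week 4 it fell by 1.91 on the log2 scale (SE 0.37, edgeR, adjusted p = 0.0127, against 13.5% of genes called and 6.4% called lower), a call lost without vehicle-injected animal 7251 (log2 -1.42, adjusted p = 0.0943) and with all 6 animals (log2 -0.30, adjusted p = 0.875). The values rest on 16 to 102 UMIs per retina, of which up to 12 came from 1 nucleus. The difference between the weeks was called (edgeR interaction, log2 -3.90 ± 0.53 SE, adjusted p = 0.00827, 1.07% of genes called), with 1 animal per arm at week 2. In astrocytes of the full gate, 21.8% of genes were higher in both AAV-injected eyes at week 2. RBPMS in horizontal nuclei was also higher in both at week 2, with 16.1 and 28.4 CPM against 4.82 and 3.09 CPM, a ratio of 5.79 (3.88 to 8.95). At week 4 it was at 11.9 and 10.4 against 21.8 and 7.56 CPM. The share of all genes higher in both eyes at week 2 is not given for horizontal nuclei.

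**Figure D4:**
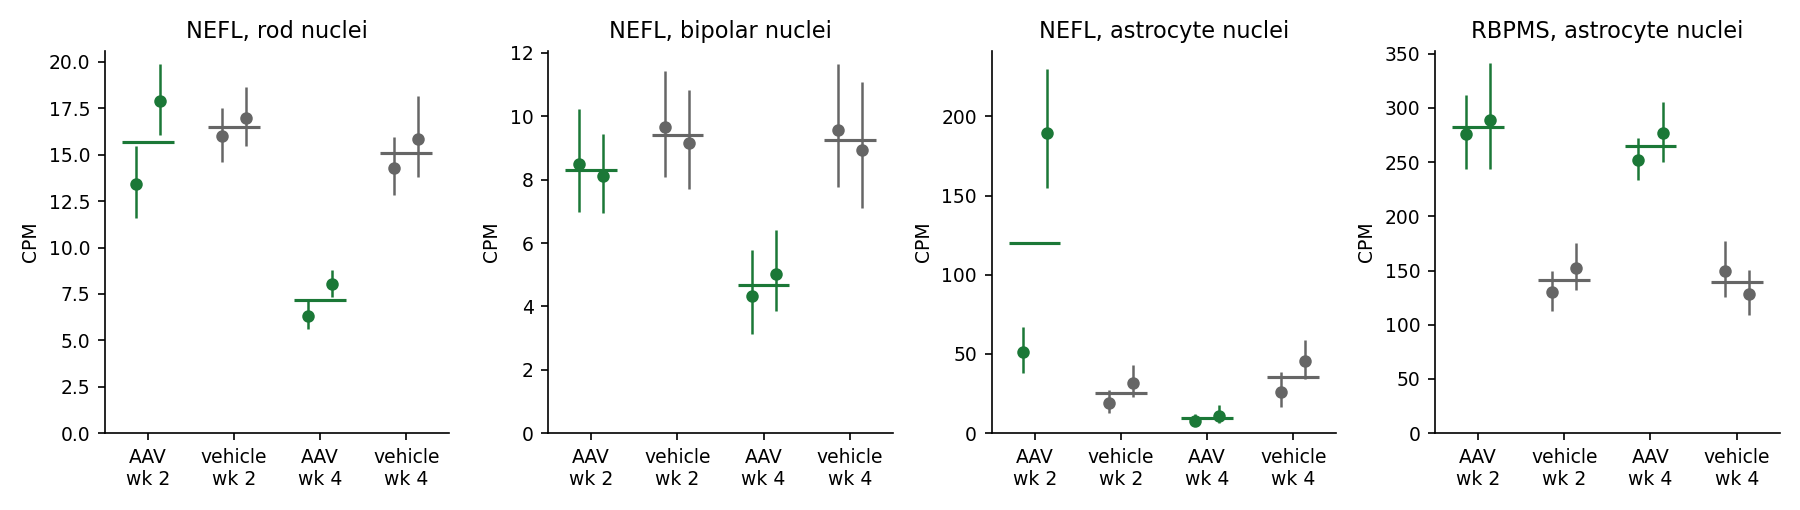
NEFL in rod, bipolar and astrocyte nuclei and RBPMS in astrocyte nuclei, in CPM; points are retinas with exact 95% Poisson intervals (counting error only), lines group means, green AAV-injected and grey vehicle-injected. NEFL is lowest in the AAV-injected retinas of week 4 in all 3 classes, and RBPMS in astrocytes is above 250 CPM in the 4 AAV-injected retinas and at most 152 CPM in the others.

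The other genes of the RGC programme were read from a list of 60, of which 57 are in the files and 47 had enough counts in the full gate. Of these 0 were higher and 1 was lower at week 4 (edgeR, adjusted p under 0.05). An unadjusted p under 0.05 was found for 13 of the 47, a larger share than the 14.3% of all genes. DESeq2 also called 1, and 1.38% of all genes. It gave 6 of the 47 an unadjusted p under 0.05, again a larger share than the 6.41% of all genes. No test of the list as a set was run. The median log2 fold change of the 47 was 0.10, against -0.0033 over all 13293 genes tested, of which 2.32% passed. The gene that fell was EBF3, a transcription factor of the EBF family found in RGCs and other neurons, at 76.7 and 78.1 CPM in the AAV-injected against 127 and 150 CPM in the vehicle-injected retinas at week 4. It fell by 0.78 on the log2 scale (SE 0.13, edgeR, adjusted p = 0.00564), whereas at week 2 it was at 171 and 182 against 145 and 158 CPM. The amacrine panel within the gated nuclei was likewise lower after AAV at week 4 and higher at week 2, at 27.6 and 38.7 against 51.97 and 58.4 CPM at week 4 and 50.4 and 45.1 against 43.4 and 42.7 CPM at week 2. EBF3 is also known from amacrine cells, and in nuclei of that class it was at 9.09 to 17.2 CPM over the 8 retinas. The part of amacrine RNA in the EBF3 difference was not tested.

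By role, the 12 transcription factors tested had a median log2 fold change of 0.28 and 9 of them were above 0, among them ISL1, a LIM-homeodomain partner of POU4F2, with 42.9 and 34.6 against 26.2 and 30.4 CPM (log2 fold change 0.52, adjusted p = 0.248). The 11 axonal and cytoskeletal genes had a median of 0.11, with 6 above 0 and values from -0.20 to 0.69. TUBB3, the neuronal tubulin beta chain, was at 50.9 and 49.2 against 36.6 and 35.2 CPM (0.55, adjusted p = 0.134). The 5 RNA-binding genes had a median of -0.25, with 2 above 0 and values from -0.48 to 0.18. RBPMS2, the paralog of RBPMS and itself a gate gene, was at 43.6 and 40.6 against 66.2 and 57.4 CPM (-0.48, adjusted p = 0.178). The 19 channel and synapse genes had a median of 0.06, with 12 above 0 and values from -0.60 to 0.66. SYT1, the calcium sensor of synaptic vesicles, was at 2396 and 2390 against 1904 and 1984 CPM (0.37, adjusted p = 0.0864). Apart from EBF3, these genes were named after their values were seen and none passed the threshold.

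**Figure D5:**
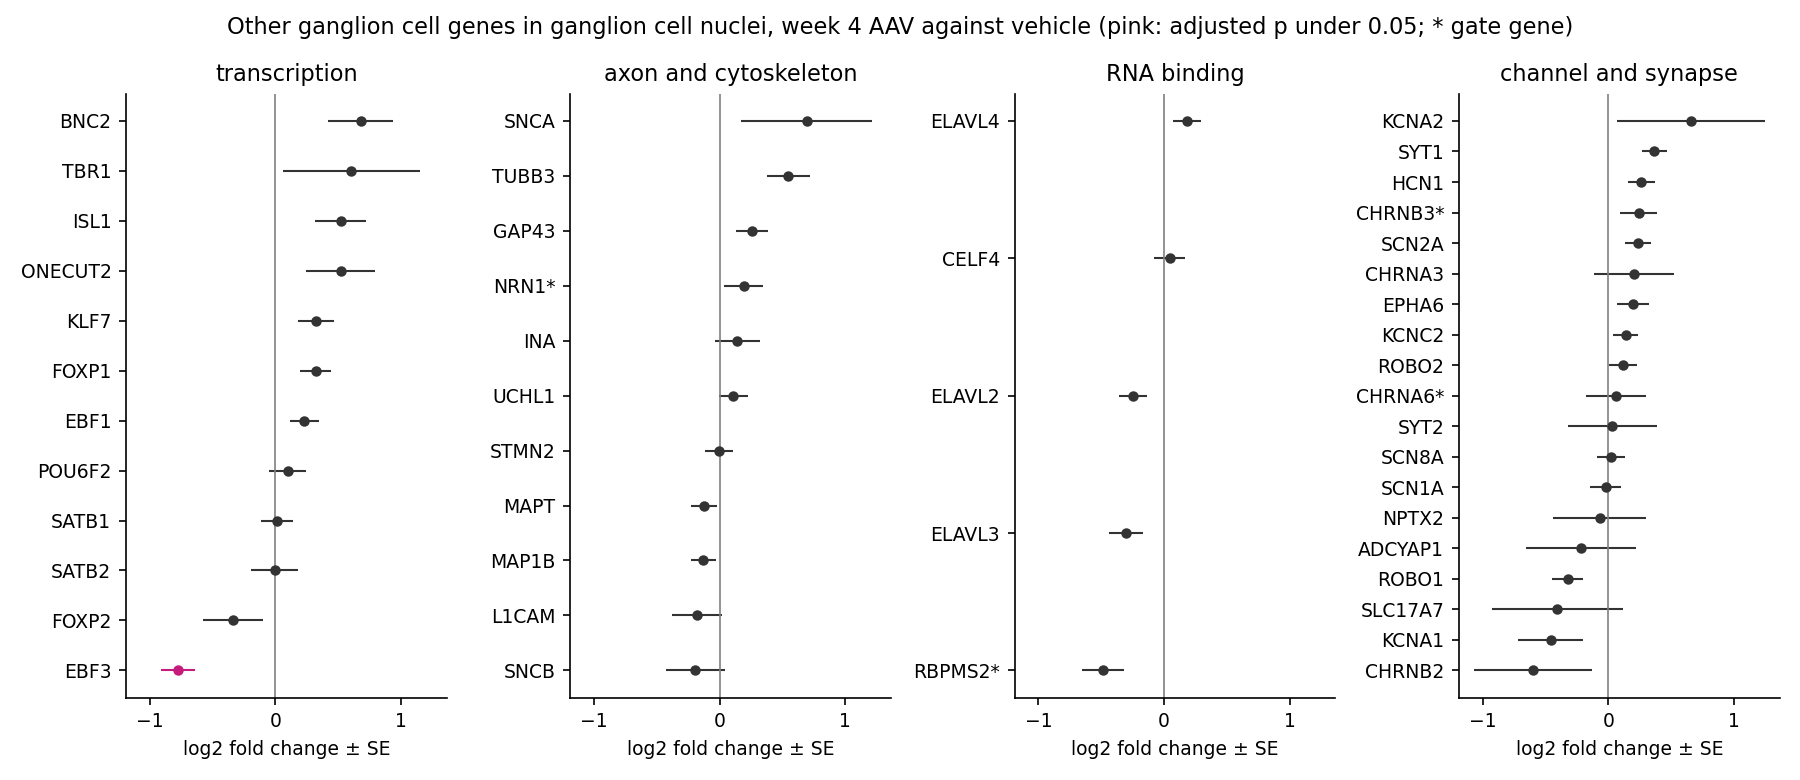
Log2 fold change (points) with its standard error (bars) in RGC nuclei at week 4, AAV-injected against vehicle-injected, for 47 other genes of RGCs grouped by role, from edgeR; pink marks an adjusted p under 0.05 and an asterisk a gene used in the gate. EBF3 at -0.78 is the only pink point, and 29 of the 47 are above 0.

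Across classes the 6 genes resembled each other to different degrees. Over 40 sums of 10 classes and the 4 vehicle-injected retinas, with RGCs gated by the 5 marker genes that are not among the 6, log2(CPM + 1) of POU4F2 and SLC17A6 had Pearson's r of 0.96. POU4F1 had r of 0.77 with POU4F2, while RBPMS had r of 0.39 with POU4F1 and 0.62 with SLC17A6. These values describe sums that share libraries and depth. Among 13247 other genes, those most like POU4F2 were ENSSSCG00000062484, ENSSSCG00000052011 and ENSSSCG00000059952 (r of 0.99 each), which are also the 3 most like SLC17A6 (0.95 to 0.96) and for which the reference tables give no symbol. Those most like RBPMS were TMEM51, SLC35D2 and KCTD10 (0.88, 0.85 and 0.84), whose highest classes were astrocyte, microglia and vascular nuclei and not RGCs. NEFL was followed by AIFM2, UCHL1 and E2F6 (0.83, 0.81 and 0.80), and SNCG by DHRS4, FANCA and CLSTN2 (0.72, 0.71 and 0.70). For POU4F1 they were ENSSSCG00000053483, ENSSSCG00000062858 and ENSSSCG00000049288 (0.87, 0.83 and 0.82).

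Sums over all kept nuclei mix the number of RGCs, the RNA per RGC and the RNA of all other nuclei, which cannot be told apart there. Of the UMIs of NEFL and SNCG, only 16.2% and 19.8% lay in RGC nuclei. In these sums none of the 6 genes passed at week 4 in edgeR. Of 26698 genes, 6.7% passed with a higher and 4.44% with a lower value. NEFL and SNCG, 2 of the 6, had an unadjusted p under 0.05. The share of all genes with such a p is not given here. NEFL had a log2 fold change of -0.60 (adjusted p = 0.0739) and was called by DESeq2 (adjusted p = 0.0237, 8.13% of genes called lower). The values were -0.64 for SNCG (edgeR, adjusted p = 0.126), -0.17 for SLC17A6 (adjusted p = 0.460), -0.15 for RBPMS (adjusted p = 0.686), -0.12 for POU4F2 (adjusted p = 0.822) and 0.93 for POU4F1 (adjusted p = 0.180).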

How the data were processed

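Nuclei sorted by DAPI were captured on 10x GEM-X 3' v4 chips in 4 lanes per retina. Counts are UMIs, which the authors obtained with Cell Ranger 8.0.0 against Sscrofa11.1 with EGFP added, and the deposited raw counts cover filtered barcodes without cell types. Each retina had 121544835 to 173614051 UMIs in all, and this depth sets the counting error only.

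Here, barcodes were kept by a 2-component fit of mitochondrial share against detected genes, as in miQC (posterior 0.75), leaving 350569 of 388491 (minimum 500 UMIs). No doublets were called, but a nucleus was gated only where the next class scored at most 0.6 of its own relative score. A class score was the mean log1p of depth-scaled UMIs over its panel, divided by the median of the 0.2% of nuclei with the highest score, and had to reach 0.5 with at least 3 panel genes detected for RGCs and 2 for others. Of 14 RGC panel genes 11 are in the files by symbol. NEFM, NEFH and THY1 were not analysed here.

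UMIs were summed per animal and class. edgeR 4.0.16 (quasi-likelihood, TMM, filterByExpr, R 4.3.3) tested week 4 and the interaction with week, with Benjamini-Hochberg adjustment over all genes of the fit and a threshold of 0.05; DESeq2 1.42.0 was the alternative. On simulated RGC counts over 12945 genes, 6.01% of calls were of unchanged genes. The replicate was the animal, with lanes and the 2 eyes of a week 2 animal summed. Poisson, binomial and ratio intervals (95%, exact) cover counting error only, and the limit beside a count of 0 is 3 counts of the total. Coordinates are from RefSeq on Sscrofa11.1, where no annotated gene overlaps the 6, and the strand setting of the counting is not given in the sources used here.

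The 6 genes and all lists were chosen with earlier results of these data known. Named are the 6, listed genes past the threshold and, for each of the 6, the 3 genes of highest Pearson correlation across classes outside every panel. ISL1, TUBB3, RBPMS2 and SYT1 fall outside this rule and were named after their values were seen. No column of the files holds results of the authors' comparisons.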

Additional observations from a re-analysis of the deposited data

Results flagged for a closer look

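A treatment effect that changed between the weeks was looked for in 2 ways, by the interaction test and, where it was not run, by all AAV-injected retinas lying on one side of the vehicle-injected ones at week 2 and on the other at week 4. RBPMS in horizontal nuclei did not pass the interaction test (-2.88 on the log2 scale, 95% interval -4.48 to -1.29, edgeR, unadjusted p = 0.00239, adjusted p = 0.271). NEFL in astrocyte nuclei was higher at week 2 (51 and 190 against 19.0 and 31.9 CPM) and lower at week 4 (7.99 and 11.095 against 25.9 and 45.4 CPM). The interaction was -3.90 on the log2 scale (SE 0.53, 95% interval -5.06 to -2.74, edgeR, adjusted p = 0.00827, over 6 animals), the only 1 called among 29 such tests of the 6 genes, in a class where 1.07% of 13102 genes were called. The spread comes from the week 4 animals, since week 2 has 1 animal per arm, and the class was tested after its values had been seen. It ranged from -4.48 to -3.08 over 6 alternatives, with adjusted p from 0.00223 to 0.0454.

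The other cases were not tested. The number of pairs of gene and class screened by the second way is not given, nor the share of all genes that meet it. These cases therefore cannot be read as an excess. NEFL in vascular nuclei was at 25.8 and 21.1 against 16.9 and 13.2 CPM at week 2 and at 6.32 and 6.65 against 9.42 and 15.8 CPM at week 4, a week 4 difference of -6.10 CPM from 2 to 11 UMIs per retina. SNCG in microglia nuclei was at 7.62 and 5.37 CPM against no UMI in the vehicle-injected eyes at week 2 and at 2.77 and 1.98 against 38.5 and 10.9 CPM at week 4, a difference of -22.3 CPM. It rests on 0 to 7 UMIs per retina, and the vehicle-injected retinas held 47 to 55 microglia nuclei each.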

How the results depend on the processing

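Of 454 alternative values for 58 results, most were counted as unchanged. For the fits this meant the same direction and side of the threshold. The share of gated nuclei was judged by sign, and other values by their spread or size. Week 2 ratios had to lie within the counting interval, so their sign could change. For POU4F1 the log2 ratio at week 2 was -1.50 with the left and 0.69 with the right eyes, both counted as unchanged. The replicates are 2 animals per arm, and nuclei left unassigned (30.6% to 50.7% per retina) limit the classes. In RGC nuclei at week 4, POU4F2, RBPMS and SLC17A6 kept their sign in every alternative and passed the threshold in none (log2 0.39 to 0.60, 0.07 to 0.30 and 0.21 to 0.52). The untested difference of POU4F1 was 2.18 CPM with the non-member gate (0.824 to 1.72 CPM leaving out 1 animal).

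NEFL in RGC nuclei was -0.032 with total UMIs as library size, -0.66 without the mitochondrial filter, -0.040 with the full gate and -0.12 to 0.21 leaving out 1 animal. SNCG in RGC nuclei was 0.0028 with 1 more panel gene required, 0.075 with the non-member gate and -0.37 to 0.19 leaving out 1 animal. The interaction of POU4F2 was -0.20 with the left eyes of week 2 and -0.038 with total UMIs. At week 2, on the log2 scale, the non-member gate gave 1.07 for POU4F2 and 0.27 for RBPMS, the left and right eyes gave 0.16 and -0.16 for SLC17A6 and 0.59 and -0.056 for SNCG, and NEFL was 0.25 without the mitochondrial filter. RBPMS in RGC nuclei was 230.5-fold other neurons with mixed nuclei kept.

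In other neurons, calls numbered 3 without the filter on low counts (NEFL in rods, bipolar and horizontal cells), 2 without the mitochondrial filter (NEFL in rods and bipolar cells), 0 with 6 animals and week as a term, and 0 to 2 leaving out 1 animal. NEFL in rods then was -0.69 with 6 animals (adjusted p = 0.398) and ranged from adjusted p = 7.65e-04 to 0.398 over all alternatives. Values that changed sign, none of them called, were RBPMS in bipolar cells (0.093 with mixed nuclei kept, 0.18 with 6 animals), RBPMS in horizontal cells (0.69 with 6 animals), NEFL in amacrine cells (-0.17 without the mitochondrial filter), and SNCG in cones and amacrine cells (-0.019 and 0.11 with 6 animals). Leaving out 1 animal gave RBPMS -0.60 to 0.25 in rods, -0.087 to 0.96 in cones, -0.45 to 0.27 in bipolar and -1.03 to 0.51 in horizontal cells. It gave NEFL -0.10 to 0.36 in amacrine cells, and SNCG -0.26 to 0.48 in cones, -0.71 to 0.015 in amacrine and -0.28 to 1.25 in horizontal cells. Over all nuclei, POU4F2 was 0.0044 with 6 animals and RBPMS -0.37 to 0.12 leaving out 1 animal. NEFL in astrocytes at week 4 was -0.30 with 6 animals (adjusted p = 0.875).

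Of the other RGC genes, 4 were called without the filter on low counts. The cause was not tested except where fewer samples or genes entered by construction. Settings added after the data were seen were the limit on mitochondrial share, the glial classes, all nuclei, and the alternatives of the interaction and of the comparison with other neurons. No paired analysis was possible because the replicate numbers follow accession order and mark no shared animal, litter or day. The week 4 cohorts of the paper each held AAV and vehicle animals, but the labels do not give the cohort.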
